A study of Mus musculus with 2 samples.

Results

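The 10 genes described here carry out transferrin iron uptake (Tfrc, Tfr2, Steap3, Slc11a2), iron storage and release from storage (Fth1, Ftl1, Ncoa4), iron export (Slc40a1) and cellular iron sensing (Aco1, Ireb2). They were named by their role, but with earlier results of these data known. They are 10 of the 21911 protein-coding genes of the annotation. A region of open chromatin was given to a gene when its midpoint lay in the gene body or within 100 kb of one of its starts, and the nearest protein-coding start was one of that gene. This gave 27 of the 24394 regions in the main list. Of these 27, 14 had a midpoint within 1 kb of an annotated start and form the promoter class, and 13 lay farther from every start and are called distal.

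The measurements come from ATAC-seq, in which the Tn5 transposase inserts adapters into DNA that nucleosomes leave free. The cells were CFU-E, primary erythroid progenitors from adult C57BL/6J male mice of 5 to 6 weeks, with no treatment or engineered allele named in the labels. Each of 2 libraries was made from 50000 cells. The libraries, numbered as biological replicates 1 and 2, make up 1 group. They derive from different biosamples with a common donor identifier. So there is no comparison of conditions, and whether they are independent cannot be told from the lists.

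Cells take up iron by binding iron-loaded transferrin at the transferrin receptor and drawing the complex into endosomes, where iron is reduced and carried into the cytosol. Iron that is not used at once is held in ferritin, and the iron regulatory proteins adjust uptake, storage and export by binding stem-loops in messenger RNAs, among them those of Tfrc, the ferritins and ferroportin, when iron is scarce. Erythroid progenitors are known for a very high demand for transferrin iron, which they pass on to haem and haemoglobin.

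The 2 strongest distal regions by fold are shown first, as the 201-bp window around the strongest summit, on the strand of the gene. Letters are from the RefSeq GRCm38.p6 genome. Fold is the authors' enrichment of a peak over its local background. Regions are numbered along each gene in its 5′ to 3′ direction. Slc11a2 region 1 is read from chr15:100443636-100443836 on the minus strand, and Tfrc region 1 from chr16:32597951-32598151 on the plus strand. Capitals mark a KLF sequence (CCACACCC, CCACGCCC, CCCCACCC or CCCCGCCC) or an antioxidant response element (TGACNNNGC), in either orientation. Both windows hold 1 of each.
Slc11a2 region 1: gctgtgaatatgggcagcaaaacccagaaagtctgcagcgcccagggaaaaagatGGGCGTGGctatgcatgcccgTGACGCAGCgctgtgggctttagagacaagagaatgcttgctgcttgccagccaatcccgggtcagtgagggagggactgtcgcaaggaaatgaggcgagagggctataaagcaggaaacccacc
Tfrc region 1: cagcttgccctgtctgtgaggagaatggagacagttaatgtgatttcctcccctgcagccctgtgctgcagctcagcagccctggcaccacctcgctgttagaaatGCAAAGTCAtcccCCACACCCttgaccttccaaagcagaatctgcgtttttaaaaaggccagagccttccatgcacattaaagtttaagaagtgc

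The upstream regions of the ferritin genes are shown because both carry the same 10-letter NFE2 sequence, TGCTGAGTCA, which reads TGACTCAGCA on the other strand. The Fth1 window is chr19:9978476-9978676 on the plus strand, and the Ftl1 window is chr7:45460897-45461097 on the minus strand. Capitals mark the NFE2 sequence, the antioxidant response element and the KLF sequence. The NFE2 sequence lies 63 bp from the summit at Fth1 and 10 bp from it at Ftl1.
Fth1 region 1: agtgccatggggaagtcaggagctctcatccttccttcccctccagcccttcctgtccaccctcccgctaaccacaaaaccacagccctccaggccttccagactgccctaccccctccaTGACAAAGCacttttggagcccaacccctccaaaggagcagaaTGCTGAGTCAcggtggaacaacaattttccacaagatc
Ftl1 region 1: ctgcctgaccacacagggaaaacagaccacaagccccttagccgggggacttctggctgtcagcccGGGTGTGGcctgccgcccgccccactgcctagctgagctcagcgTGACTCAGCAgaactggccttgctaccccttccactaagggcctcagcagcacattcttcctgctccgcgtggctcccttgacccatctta

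The next 3 windows are shown because each holds a GATA pair, that is CTG followed after 7, 8 or 9 bases by a GATA hexamer (GATA with A or T before it and A or G after it), the arrangement named for GATA1 and its TAL1 partner complex. They are Steap3 region 4 (chr1:120259325-120259525, minus strand), Steap3 region 5 (chr1:120231389-120231589, minus strand) and Ncoa4 region 4 (chr14:32168966-32169166, plus strand). Capitals mark the GATA hexamers, the CTG of a pair (its reverse complement where the pair lies on the other strand) and the KLF sequences. All 3 lie in introns.
Steap3 region 4: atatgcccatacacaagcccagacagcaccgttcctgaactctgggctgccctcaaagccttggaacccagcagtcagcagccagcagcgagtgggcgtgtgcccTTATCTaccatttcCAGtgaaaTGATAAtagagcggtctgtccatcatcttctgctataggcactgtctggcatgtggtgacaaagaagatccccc
Steap3 region 5: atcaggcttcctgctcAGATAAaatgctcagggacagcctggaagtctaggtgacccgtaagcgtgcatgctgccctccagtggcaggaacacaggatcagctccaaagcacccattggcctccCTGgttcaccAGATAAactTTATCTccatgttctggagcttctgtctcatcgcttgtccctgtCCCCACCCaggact
Ncoa4 region 4: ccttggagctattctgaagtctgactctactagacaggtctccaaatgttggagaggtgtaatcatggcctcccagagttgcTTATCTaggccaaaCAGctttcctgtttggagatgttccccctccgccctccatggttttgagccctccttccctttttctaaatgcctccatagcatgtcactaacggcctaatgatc

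Ireb2 had the strongest promoter by fold, and the 250 bases before its RefSeq start (chr9:54863505-54863754, plus strand) are shown with each CG dinucleotide in capitals. The stretch holds 24 CG dinucleotides and 159 G or C bases, with 0 GATA hexamers and 0 KLF sequences. The RefSeq promoter table held entries for 8 of the 10 genes, and Slc11a2 and Slc40a1 had none.
Ireb2 promoter: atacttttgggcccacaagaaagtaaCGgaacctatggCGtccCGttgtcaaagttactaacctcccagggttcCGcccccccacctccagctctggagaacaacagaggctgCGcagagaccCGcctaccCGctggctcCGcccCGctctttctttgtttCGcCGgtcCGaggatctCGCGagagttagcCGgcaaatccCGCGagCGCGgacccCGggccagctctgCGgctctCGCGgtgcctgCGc

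All 10 genes had an accessible promoter, meaning that a region reached within 1 kb of one of their starts (100%, exact 95% interval 69.2 to 100%). Over all protein-coding genes, 45.8% did. The 10 promoters were also found in the conservative list (45.7% of all genes there), in the less strict overlap list (52.3%), and in the lists of replicate 1 (43.5%) and replicate 2 (42.6%). Distal regions differed in number by role. In the main list, the 4 uptake genes held 9 of the 13 distal regions and the 3 storage genes held 4. The export gene and both sensing genes held 0. Of the storage genes' 4, Ftl1 region 1 had its midpoint 1.06 kb from the start, just past the 1 kb limit. Ncoa4 region 2 (fold 2.64) was in neither replicate's thresholded list. Tfrc, Steap3 and Slc11a2 had 3 distal regions each, a number reached by 6.15% of all protein-coding genes, while 26.0% had at least 1. At Steap3 and Slc11a2, 1 of the 3 (folds 4.98 and 3.79) was in neither replicate's thresholded list. A count of 2 or more was reached by 11.6% of all protein-coding genes. The median gene of the annotation had 1 region and 0 distal regions, and the median of the 10 genes was 3 regions and 1 distal region.

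**Figure D1:**
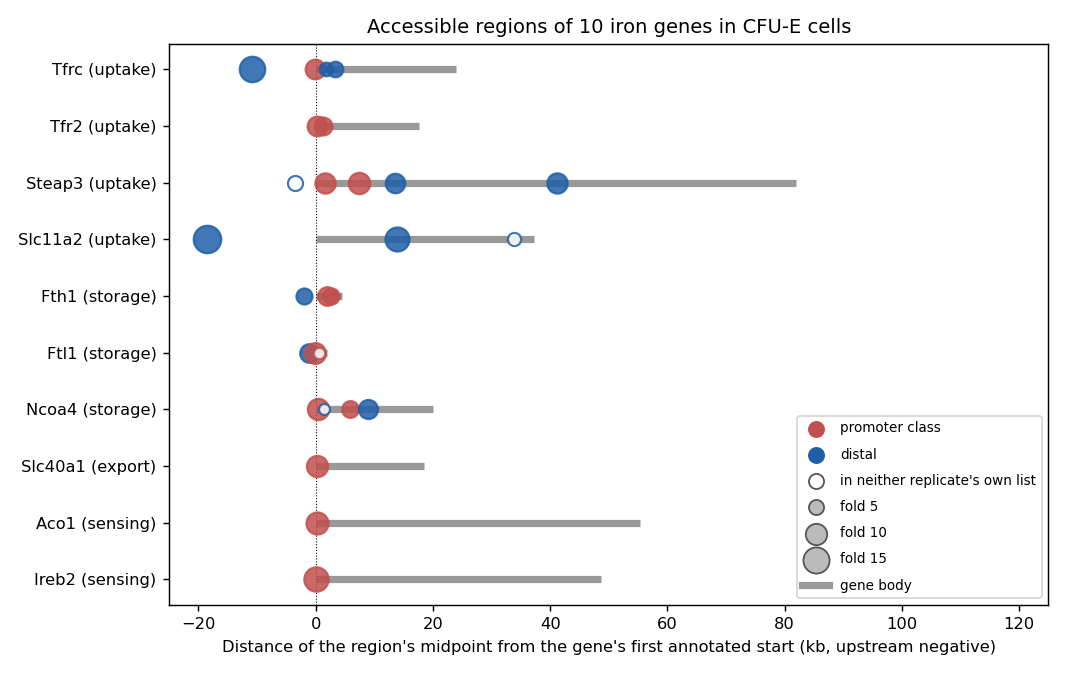
Positions of the 27 regions relative to each gene's first annotated start (x axis, kb, upstream negative), with 1 row per gene, grey bars for gene bodies and circle area proportional to fold in the series list. Red circles are promoter regions, blue circles distal ones and open circles the 4 regions found in neither replicate's own list. The largest circles are the upstream regions of Slc11a2 and Tfrc, and Slc40a1, Aco1 and Ireb2 each have 1 circle, at the start.

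Tfrc encodes the main transferrin receptor of erythroid cells and lies at chr16:32608920-32632794. Its strongest region by fold was not at the promoter but 10.8 kb upstream, in intergenic sequence (region 1, chr16:32597838-32598416, shown above). That region had a series fold of 14.3, with 12.5 in replicate 1's list and 13.6 in replicate 2's, and its series fold stood in the top 2.05% of all 12040 distal regions. The promoter (region 2, chr16:32608610-32609153) had a fold of 8.55, with 8.01 in replicate 1 and 8.99 in replicate 2. By the −log10 p value of the peak the order was the other way, with 163 at the promoter and 124 upstream. The same held in each library, at 80.5 against 58.3 in replicate 1 and 90.2 against 65.9 in replicate 2. A pair of weaker regions lay in introns, 1.39 kb past the nearest start (region 3, fold 4.12, replicates 3.88 and 4.25) and 3.33 kb past the first start (region 4, fold 5.36, replicates 5.24 and 5.17). Both intronic regions held a GATA hexamer at the summit, and the upstream region, which was the strongest, held none in its summit window. The summit window of region 3 was 58.2% soft-masked repeat sequence.

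Tfr2 encodes a transferrin receptor known to work as a sensor of iron-loaded transferrin, also in erythroid cells. It lies at chr5:137569840-137587481 and was the uptake gene with 0 distal regions. Region 1, at the first starts (chr5:137569662-137570393), had a fold of 8.53, with 8.52 in replicate 1 and 8.02 in replicate 2. Region 2 (chr5:137570709-137571619), beside the start of a retained-intron transcript, had 7.01, with 7.15 and 6.65. Both stood below the median fold of all promoter regions, 9.23. A further intronic region (chr5:137585108-137585320, fold 5.11) appeared in the conservative and overlap lists and missed the main list.

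Steap3 encodes the reductase that turns ferric iron into ferrous iron in the endosome. It lies at chr1:120190757-120272705 on the minus strand and had 5 regions, the most of the 10 genes. By contrast, 4.64% of all protein-coding genes had 5 or more. A pair of separate promoter regions was open. The one at the start near chr1:120265284 (region 3, chr1:120264798-120265762) had a fold of 10.05, with 9.66 and 9.93 in replicates 1 and 2, and a −log10 p of 192, the highest of the 27 regions and in the top 10.4% of promoter regions. The one at the start near chr1:120271082 (region 2, chr1:120270916-120271381) had a fold of 9.01, with 8.87 and 8.32. Region 3 had the higher fold in all 3 lists. Farther in, region 4 (chr1:120258519-120259874) spanned 1356 bp and merged 4 records, 6.06 kb past the nearest start, with a fold of 8.37, replicates 7.78 and 8.29. Region 5 (chr1:120231217-120231828), 33.7 kb past the nearest start, had a fold of 9.03, with 9.34 in replicate 1 and 7.95 in replicate 2. Both intronic regions hold a GATA pair, as the printed windows show. Region 1, 3.47 kb upstream of the gene (chr1:120275970-120276379), was weaker, with a fold of 4.98 and a −log10 p of 19.4. It was in neither replicate's thresholded list, though both overlap lists held it, at 4.72 and 4.47, and 93.0% of its summit window was soft-masked repeat sequence.

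Slc11a2 encodes the divalent metal transporter that carries ferrous iron out of the endosome, and lies at chr15:100387898-100425072 on the minus strand. By fold it had the strongest region of the 10 genes, 18.5 kb upstream of its first start (region 1, chr15:100443077-100444035, 959 bp). Its series fold was 16.6, with 14.8 in replicate 1's list and 15.7 in replicate 2's. That placed it in the top 0.581% of all distal regions by fold. An intronic region 13.8 kb past the first start (region 2, chr15:100410935-100411703) followed with 12.7, replicates 11.6 and 12.1, in the top 4.73%. The 3rd region, near the end of the gene (chr15:100390902-100391474), was weak, with a fold of 3.79 and a −log10 p of 13.5, and neither replicate's thresholded list held it. Both strong regions had a higher fold than the gene's promoter in the series list and in each replicate's list. By −log10 p the order was the other way, with 155 at the promoter against 144 and 143 at regions 1 and 2. Replicate 1 gave 75.3 against 73.9 and 75.1, and replicate 2 gave 82.5 against 73.9 and 67.5.

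The promoter of Slc11a2 is not among its 3 regions, because a start of the predicted gene Gm5475 lies closer. The region chr15:100422892-100423609 had its midpoint 196 bp from a Slc11a2 start and 58 bp from the Gm5475 start. Its fold was 7.89, with 7.27 and 8.22 in replicates 1 and 2. An intronic region at chr15:100419900-100420572, with a fold of 5.77, was likewise nearest to Gm5475. The conservative and overlap series lists gave Slc11a2 a pair of regions that the main list lacked. A region 8.33 kb upstream (chr15:100433241-100433556) had a fold of 6.67, with 6.52 and 5.37 in the replicates' overlap lists. A promoter-class region (chr15:100424057-100424254) was weak, with a fold of 2.43.

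**Figure D2:**
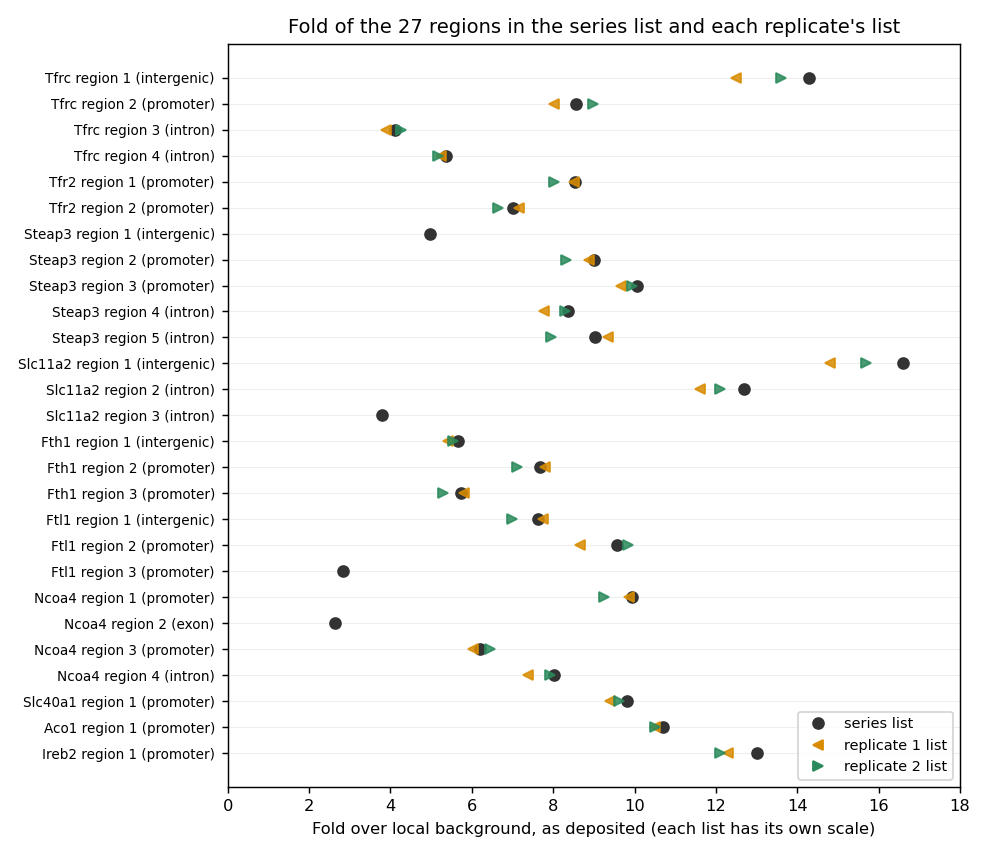
Fold over local background (x axis) of the 27 regions, 1 row each, in the series list (dark circles), replicate 1 (left-pointing triangles) and replicate 2 (right-pointing triangles). Region 1 of Slc11a2 and region 1 of Tfrc lie farthest right in all 3 lists, at 16.6 and 14.3 in the series list, and 4 rows have no triangles because neither replicate's own list held the region.

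Fth1 encodes the ferritin heavy chain, the subunit that oxidises iron for storage, and lies at chr19:9980598-9985098. Its promoter region (region 2, chr19:9982256-9982810) had a fold of 7.67, with 7.80 and 7.10 in replicates 1 and 2, the lowest promoter fold of the 10 genes in the series list. A neighbouring region at a further start (region 3, chr19:9982907-9983604) had 5.74, with 5.80 and 5.30. The upstream region with the NFE2 sequence (region 1, chr19:9978297-9978973) had a fold of 5.66, with 5.41 and 5.53, below the median of all distal regions, 6.52. Its NFE2 sequence, at chr19:9978639-9978648, lies 4.01 kb before the start at chr19:9982646. The overlap list gave Fth1 6 regions in place of 3, the added ones 25.4 to 26.4 kb upstream with folds of 3.1 to 3.9.

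Ftl1 encodes the ferritin light chain, which supports the mineral core, and lies at chr7:45457944-45459884 on the minus strand. Its promoter (region 2, chr7:45459771-45460210) had a fold of 9.57, with 8.67 in replicate 1 and 9.83 in replicate 2. The upstream region (region 1, chr7:45460385-45461498) spanned 1114 bp, merged 5 records and had a fold of 7.62, with 7.74 and 6.99. Its NFE2 sequence lies at chr7:45460978-45460987, 1.09 kb before the start. A weak region inside the gene (region 3, chr7:45459162-45459496, fold 2.83) was in neither replicate's thresholded list. Both ferritin genes have processed copies elsewhere in the genome, and how reads that match several places were treated is not given in the sources used here, so values over their exons are uncertain.

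Ncoa4 encodes the receptor that takes ferritin to the lysosome so that stored iron is released. It lies at chr14:32159865-32179855 and had 4 regions, a number that 7.54% of all protein-coding genes reached or passed. The promoter (region 1, chr14:32159686-32160824) had a fold of 9.94, with 9.86 and 9.24 in replicates 1 and 2. A further promoter region (region 3, chr14:32165551-32165902) had 6.21, with 6.04 and 6.45. The intronic region with the GATA pair (region 4, chr14:32168423-32169233) had 8.03, with 7.39 and 7.92, above the median of all distal regions. Region 2, over an exon (chr14:32161194-32161385), was the narrowest of the 27 at 192 bp and the weakest at 2.64. It was in neither replicate's thresholded list and not in the conservative list.

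Slc40a1 encodes ferroportin, the known iron exporter of animal cells, and lies at chr1:45908068-45926523 on the minus strand. It had 1 region, which covered the promoter and was the widest of the 27 at 1597 bp, merged from 6 records (chr1:45925515-45927111). Its series fold was 9.82, and the replicates gave 9.39 and 9.61. The summit window held 2 GATA hexamers, a GATA pair and a KLF sequence. It was the only promoter window of the 14 with a GATA pair, which 3.25% of all promoter regions had. The less strict overlap list also held a region 8.44 kb upstream (fold 3.03) and a promoter-class region (fold 2.3), neither found in a list of either replicate.

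Aco1 and Ireb2 encode the iron regulatory proteins. Aco1 doubles as cytosolic aconitase when it carries an iron-sulphur cluster, and Ireb2 is known to be degraded when iron is plentiful. Each had 1 region, at the promoter. For Ireb2 (chr9:54863300-54864389) the fold was 13.0, with 12.3 and 12.1 in replicates 1 and 2, in the top 18.4% of promoter regions. For Aco1 (chr4:40142745-40143823) it was 10.7, with 10.5 in each replicate. The less strict overlap list added 1 region to each gene, in an Aco1 intron (chr4:40182805-40183244, fold 5.53, in replicate 1's overlap list at 6.31) and 33.8 kb upstream of Ireb2 (fold 3.92). Neither summit window of the main list held any of the 13 consensus sequences searched.

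Across the 10 promoters, the series fold fell in the order Ireb2 (13.0), Aco1 (10.7), Steap3 (10.05), Ncoa4 (9.94), Slc40a1 (9.82), Ftl1 (9.57), Tfrc (8.55), Tfr2 (8.53), Slc11a2 (7.89) and Fth1 (7.67). Ireb2 and Aco1 ranked first and next in each replicate's list too. Steap3, Ncoa4, Slc40a1 and Ftl1 stood above Tfrc, Tfr2, Slc11a2 and Fth1 in all 3 lists, and within each of these sets of 4 the order changed from list to list. The series list derives from both libraries, so it adds no separate observation to the replicates' lists. By fold, the iron sensing genes thus had the strongest promoters, with 0 distal regions, whereas Tfrc and Slc11a2 had lower promoter folds and the strongest distal regions. By −log10 p the promoters stood otherwise, with 192 at Steap3, 168 at Aco1, 163 at Tfrc, 156 at Ftl1, 155 at Slc11a2 and 153 at Ireb2. In bulk ATAC-seq, a region open in fewer cells and one less open in each cell cannot be told apart.

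Set among all regions of their class, the promoter regions of these genes lay on both sides of the middle. Their median fold was 8.78 against 9.23 for all 12354 promoter regions, and 6 of 14 were above that median. By −log10 p their median was 133 against 97.9. The distal regions had a median fold of 7.62 against 6.52 for all, with 7 of 13 above the median of all, and a median −log10 p of 72.9 against 36.2. Their median width was 612 bp, against 441 bp over all distal regions. In the windows around the summits, the median G and C content was 62.2% at promoters and 50.7% at distal regions, close to 63.7% and 51.2% over all. Windows over 50% soft-masked as repeats numbered 2 of 13 at distal regions (Tfrc region 3 and Steap3 region 1), against 6.05% of all.

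**Figure D3:**
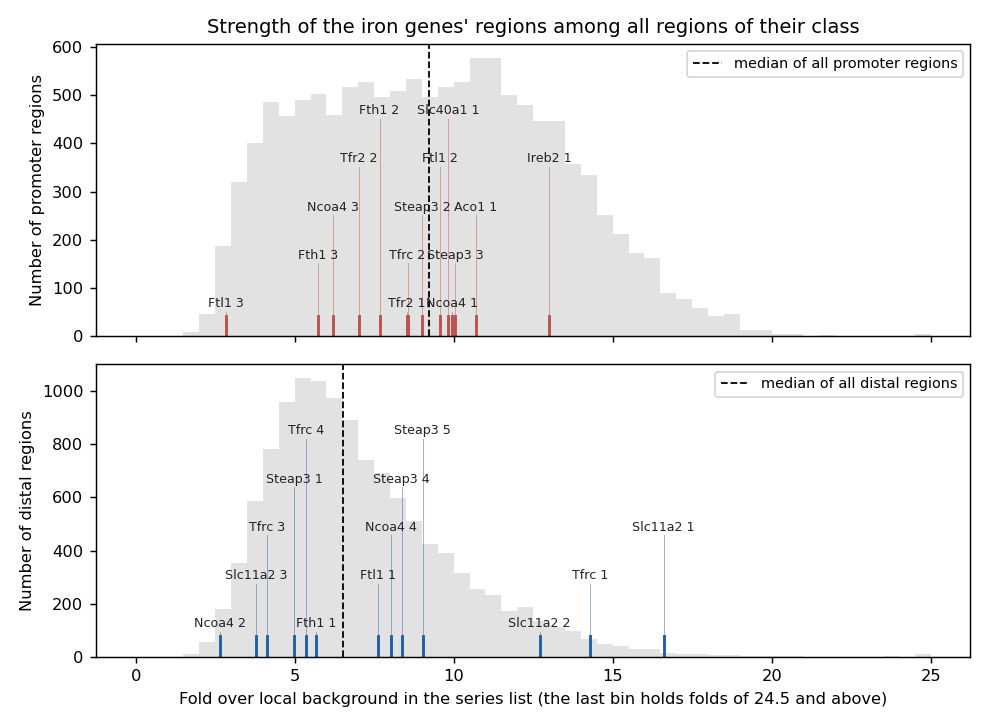
Number of regions (y axis) by fold in the series list (x axis), for all promoter regions (upper panel) and all distal regions (lower panel), with a coloured tick and a label for each region of the 10 genes and a dashed line at the median of all. The promoter ticks spread around the median of 9.23, and 3 distal ticks, Slc11a2 regions 1 and 2 and Tfrc region 1, lie in the right tail at 12.7 to 16.6.

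The replicates shared most of these regions, several of which lie at the same gene and are not independent units. Of the 27, 23 overlapped a region in the thresholded list of each replicate (85.2%, exact 95% interval 66.3 to 95.8%), and 65.3% of all regions did. The count was 13 of 14 at promoters, where all promoter regions gave 79.4%, and 10 of 13 at distal regions, where all gave 50.7%. The 4 that were not shared, Steap3 region 1, Slc11a2 region 3, Ftl1 region 3 and Ncoa4 region 2, were in neither list, and their folds, 2.64 to 4.98, were among the lowest.

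Consensus sequences on either strand were counted where they lay wholly within 100 bp of the strongest summit. Each share below is set beside that of all regions of the class, and a match is not a measurement of binding. The GATA hexamer, the target of the erythroid factor GATA1, occurred in 6 of 13 distal windows (46.2%, exact 95% interval 19.2 to 74.9%), near the 49.8% of all distal regions. Those 6 were Tfrc regions 3 and 4, Steap3 regions 4 and 5, and Ncoa4 regions 2 and 4. The GATA pair occurred in 5 of 13 distal windows, against 15.8% of all distal regions. These were the 6 windows with a hexamer except Tfrc region 4. At promoters, 3 of 14 windows held a GATA hexamer (Steap3 region 2, Fth1 region 3 and Slc40a1), against 16.7%. Every pair is also counted under the hexamer.

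The KLF sequence, bound by the erythroid factor KLF1 and its relatives, occurred in 7 of 13 distal windows, against 19.0% of all distal regions. These were Tfrc regions 1, 3 and 4, Steap3 region 5, Slc11a2 region 1, Ftl1 region 1 and Ncoa4 region 2. At Tfrc, all 3 distal windows thus held one, and the promoter region held 2 outside its window, 116 and 305 bp from the summit. At promoters it was found in 5 of 14 windows, against 39.6%. Over whole regions the counts were 9 of 13 distal regions, against 28.1%, and 10 of 14 promoter regions, against 61.4%.

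The NFE2 sequence (TGCTGAGTCA or TGCTGACTCA), named for an erythroid leucine zipper factor, occurred in the upstream windows of Fth1 and Ftl1, 2 of 13 distal windows against 2.57% of all. None of the 14 promoter windows held it, against 0.526%. The antioxidant response element occurred in 5 distal windows, against 13.0%: those of Fth1 and Ftl1, Tfrc region 1, and Slc11a2 regions 1 and 3. At promoters it occurred in 2 of 14 (Fth1 region 3 and Ncoa4 region 3), against 11.7%. The AP1 sequence (TGAGTCA or TGACTCA) occurred in 3 distal windows, Fth1 region 1, Ftl1 region 1 and Slc11a2 region 2, against 7.27%, and in 0 of 14 promoter windows, against 2.95%. Each NFE2 sequence found here contains an AP1 sequence and an antioxidant response element, so these counts are not separate. Slc11a2 region 2, the strong intronic region, held AP1 alone.

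The core of the hypoxia response element (ACGTG) occurred in 6 of 14 promoter windows, against 19.7% of all promoter regions. They were Tfrc region 2, Tfr2 region 1, Fth1 region 3, Ftl1 region 3, and Ncoa4 regions 1 and 3. Over whole promoter regions the core occurred in 9 of 14, against 50.1%, a smaller excess. Among distal windows only Ncoa4 region 2 had it, 1 of 13 against 11.9%. The E-box CACGTG, which contains that core, occurred in 1 promoter window, Fth1 region 3, against 7.53%, and in 0 distal windows, against 4.41%. The NFY sequence (CCAAT, then C or G, then A or G) occurred at 3 of 14 promoters, those of Tfrc, Fth1 and Ftl1, against 20.6%, and in 2 of 13 distal windows (Tfrc region 4 and Steap3 region 5), against 7.52%. The STAT5 sequence (TTCNNNGAA) occurred in Tfrc region 4 alone, 1 distal window against 4.93% and 0 promoter windows against 3.78%. The NRF1 sequence (GCATGCG) occurred in Ftl1 region 3 alone, 1 promoter window against 5.01% and 0 distal windows against 1.13%. The ETS sequence (CCGGAAG) was in 0 of the 27 windows, against 14.9% of all promoter and 1.83% of all distal regions. The CTCF consensus of 12 letters was also in 0, against 11.6% of all distal and 2.43% of all promoter regions.

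**Figure D4:**
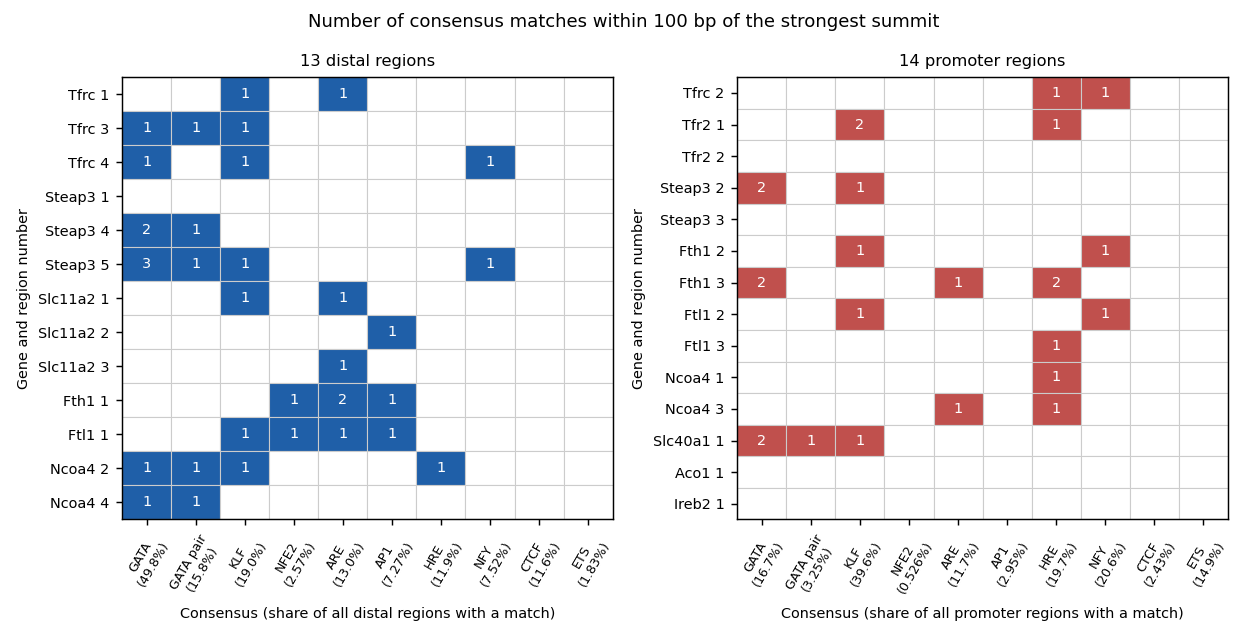
Number of consensus matches within 100 bp of the strongest summit for 13 distal regions (left) and 14 promoter regions (right), with 1 row per region and 1 column per consensus, and the share of all regions of that class with a match given in percent under each column. Blank cells are 0. On the left, every Tfrc, Steap3 and Ncoa4 row except Steap3 region 1 has a GATA or KLF match, and the NFE2 column is filled only for region 1 of Fth1 and of Ftl1.

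Some regions close to these genes were nearest to the start of another. At Steap3, a region inside the gene body (chr1:120197198-120197489, fold 5.83) was nearest to a start of 3110009E18Rik. Within 20 kb of a Tfrc start, a region with a fold of 10.6 (chr16:32638479-32638947), 14.3 kb away, was nearest to Tnk2, and so was the Tnk2 promoter region. Next to Ncoa4, regions with folds of 11.2 and 11.6 were nearest to Msmb and Timm23. The remaining neighbours were Mospd3 beside Tfr2, Best1 beside Fth1, and Gys1, Bax and Dhdh beside Ftl1.

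Of 34 other iron genes, 17 had an accessible promoter and 13 had at least 1 distal region, 49 distal regions in all. Over all protein-coding genes 45.8% and 26.0% did, so 17 of 34 is near the background for promoters. All 8 genes of cellular sensing and iron-sulphur assembly had an accessible promoter, as both sensing genes above did, and 2 of them had distal regions. Of 4 storage and chaperone genes, 3 had one. Among 12 genes of the transferrin cycle and other uptake, 5 did, and 6 had distal regions, 25 in all. Of 10 genes of systemic control and export, 1 had an accessible promoter, Erfe (fold 9.91), which encodes the erythroid hormone erythroferrone. Distal regions were found at 3 of these 10, 11 in all (6 at Hjv, 3 at Tmprss6 and 2 at Erfe). The highest promoter folds were at Pcbp2, an iron chaperone (17.7), Herc2, a ubiquitin ligase linked to Ncoa4 turnover (13.0), and the iron-sulphur assembly genes Nfs1 (12.1), Lyrm4 (11.4) and Ciao1 (10.7). The genes with no promoter region were Trf, Hfe, Steap1, Steap2, Steap4, Cybrd1, Slc39a14, Ftmt, Hamp, Hamp2, Bmp6, Bmp2, Hjv, Tmprss6, Epas1, Heph and Cp, of which Hfe (4.64) and Slc39a14 (3.39) had one in the overlap list. Steap3 was thus the member of the Steap family with an accessible promoter here.

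The cell type named in the labels was set beside marker genes. All 12 erythroid markers, such as Gata1, Klf1 and Epor, had an accessible promoter, against 45.8% of all protein-coding genes. So did 4 of 6 megakaryocyte markers (Itga2b, Gp1ba, Vwf and Gp9) and 1 of 6 macrophage markers (Cd163). The count was 1 of 6 for granulocyte and monocyte markers (Prtn3), 0 of 6 for hepatocyte and 0 of 6 for earlier progenitor markers. Distal regions were found at 10 of the 12 erythroid markers, against 26.0% of all protein-coding genes. They numbered 47, with 15 at Zfpm1. Megakaryocyte markers had 8 distal regions, granulocyte and monocyte markers 3, macrophage markers 2, earlier progenitor markers 1 and hepatocyte markers 0. Kit, a receptor known on CFU-E, was among those without an accessible promoter, also in the overlap list. In that list 2 of the 6 earlier progenitor markers had one, Gata2 (fold 4.15) and Cd34 (3.66). The part of other cells in the results was not tested. Of the regions of replicate 1, 86.5% overlapped one of replicate 2, and 92.0% the other way.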

How the data were processed

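Peak lists of ATAC-seq from 2 CFU-E libraries (1 group) were used, with positions on mm10, per the labels. For each peak, read by the narrowPeak column order, the authors deposited a score, a fold ratio over local background, and a −log10 p value. The sources used here give no aligner, peak caller, duplicate handling or Tn5 offset. As the main list served the series peaks that the authors thresholded on the irreproducible discovery rate (IDR, lowest score 540, 50003 records). The conservative, overlap and per-replicate lists stood beside it, 7 in all. Despite its name, the conservative list was close to the main one and not shorter (50020 records). Finding a region in both thus adds little. The series lists derive from both libraries together, so they are not independent of the replicates' lists. Read depth is unknown from peak lists, so intervals (Clopper-Pearson, 95%) cover counting error only. They treat regions or genes as independent draws. Yet several regions lie at the same gene, and the genes were not drawn at random. No SD is given, since each list has its own scale and the authors' fold only describes or ranks peaks within a list.

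Overlapping or touching records were merged, and a region took the values of its record of highest fold. Ranks and class medians of −log10 p used the highest value of any of a region's records. Genes and starts were from GENCODE M21, and sequence from RefSeq GRCm38.p6. Sharing meant at least 1 bp of overlap. All 10 genes are named. Of the other iron genes, those with the 5 highest promoter folds and those without a promoter region are named, and of other genes only neighbours. Genes and lists were chosen with earlier results of these data known. No test was run. Scripts were tested on simulated data and used Python 3.11.15, pandas 2.3.3, numpy 2.4.6, scipy 1.17.1, pysam 0.24.0 and samtools 1.23.1.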

Additional observations from a re-analysis of the deposited data

How the results depend on the processing

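The 10 accessible promoters were found under every alternative tried: the conservative and overlap lists, a window of 500 bp, the upper 50% of regions by fold, and each replicate's list alone. The number of regions, 27, became 42 in the overlap list, which is less strict, and 17 in the upper 50% by fold. For distal regions, 13 became 26 and 7. With 1 replicate's list alone, regions numbered 23 to 23 and distal regions 10 to 10. The conservative list gave 28 and 13, and letting non-coding genes compete for regions gave 25 and 11. The regions lost to non-coding genes were at Tfrc, with 3 in place of 4, and at Slc11a2, with 2 in place of 3. GATA hexamers were found in 11 of 26 distal windows of the overlap list (42.0% of all its distal regions) in place of 6 of 13. With 50 bp to each side they were found in 5 of 13 (38.9% of all) and over whole regions in 9 of 13 (64.3% of all), so the counts stayed near the background. Between 22 and 24 of 27 regions were shared when the overlap criterion or the replicates' lists were changed. In the overlap list 23 of 42 were (54.8%, against 37.1% of all its regions), a share over 1.5 times lower, and in the upper 50% by fold 17 of 17 were (93.2% of all). Of 32 alternative values of these counts, 27 stayed within 1.5 times the main one and 5 did not. Of 80 counts per gene, 71 did and 9 did not. No paired analysis was possible because there is 1 group and no test.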
